A study of Mus musculus with 6 samples.

Results

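The unfolded protein response and the integrated stress response are the programmes by which a cell answers misfolded protein in the endoplasmic reticulum (ER) and a shortage of amino acids or other stress. Their transcripts were followed in 32 genes, listed by name with earlier results of these data known. Shares set against all genes are therefore description only. The 32 were sought among the 22800 gene symbols measured in cells of bronchoalveolar lavage fluid, obtained by rinsing the lung. All 32 genes were in the table and all passed the filter on low values (at least 1 FPKM in at least 3 libraries), as did 10405 genes in all. FPKM are sequenced fragments scaled by transcript length and by the mapped fragments of the library, so levels can be set beside each other between genes. The mice (Mus musculus) had received vehicle (n = 3, replicates 2, 3 and 4) or 20 µg of sulfatide, a sulfated glycolipid of myelin, into the peritoneal cavity (n = 3, replicates 1, 2 and 3). The series title places the comparison in work on sulfatide-reactive natural killer T cells, alveolar macrophages and lung ischemia-reperfusion injury, but the labels state neither an injury nor the strain, age or time. They do not say whether each library is 1 animal, so the p-values measure the spread between these libraries, which may be technical.

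Misfolded protein in the ER is sensed by 3 membrane proteins. Ern1 (IRE1) is a kinase and nuclease that splices the mRNA of the transcription factor Xbp1. Atf6 is a transcription factor that is cut free from the membrane, and Eif2ak3 (PERK) is a kinase that phosphorylates the translation factor eIF2. Xbp1 and Atf6 raise the chaperones and the machinery that returns misfolded protein to the cytosol for degradation. Phosphorylated eIF2 slows translation in general while favouring that of Atf4, which turns on genes for amino acid synthesis, and Ppp1r15a, a subunit of the phosphatase that removes the phosphate again. Cells that secrete much protein, activated macrophages among them, draw on both arms. A gene-level value shows neither the splicing of Xbp1 nor the cutting of Atf6 nor the translation of Atf4, so none of these steps was measured.

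Sulfatide libraries held less mRNA of Ppp1r15a, Chac1, Phgdh, Herpud1, Sel1l and of the chief ER chaperone Hspa5 than vehicle libraries, and more of Sdf2l1, Dnajc3 and Eif2ak3. The differences were small, from 1.25-fold to 1.60-fold. By limma, 3 of the 32 genes were higher in sulfatide (9.38%, against 8.31% of all genes tested) and 6 were lower (18.8%, against 10.4%), and 23 did not pass at an adjusted p of 0.05 (18.7% of all genes tested passed in either direction). The groups lay apart, with no overlap of single libraries, upward for 5 of the 32 genes (15.6%, against 18.6% of all genes tested) and downward for 9 (28.1%, against 18.3%). After each library was rescaled to a common sum (TPM), 4 lay apart upward (12.5%, against 10.7% of all genes tested) and 14 downward (43.8%, against 27.7%). The median log2 fold change over the 32 genes was -0.05, against 0.04 over all genes tested. On the same TPM scale, 1 of the 32 genes was higher (4.59% of all genes tested) and 8 were lower (14.9%, and 19.5% in either direction), with Syvn1 and Edem1 added to those that fell and Dnajc3 and Eif2ak3 no longer called. The direction of the 3 higher genes was the same in the 13 alternatives tried, but most calls depended on single libraries: leaving out vehicle replicate 3 gave 7 higher and 6 lower, and leaving out sulfatide replicate 3 gave 1 and 1. Only Ppp1r15a passed in each of the 13.

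**Figure D1:**
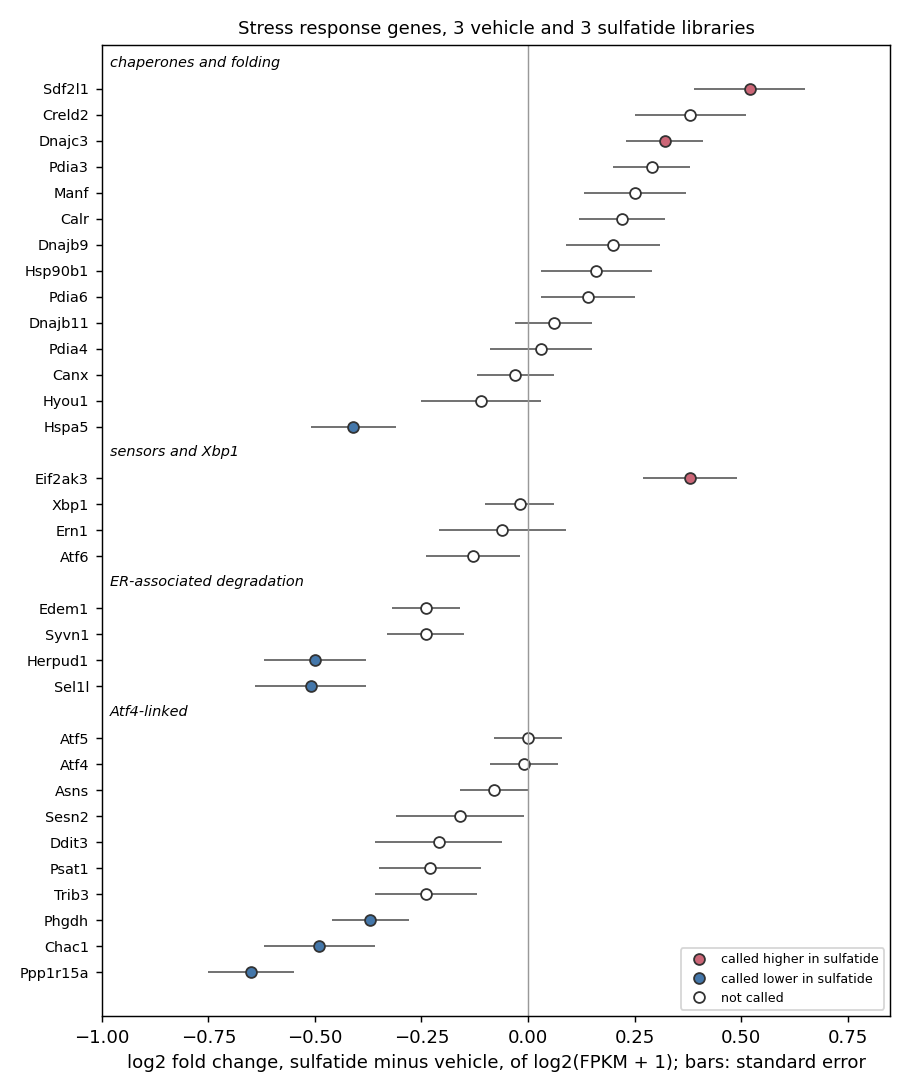
Log2 fold change (x axis, sulfatide minus vehicle, from log2(FPKM + 1) values, bars are standard errors) of the 32 genes, ordered within 4 roles, with filled points for genes called by limma at an adjusted p below 0.05. The chaperones lie mostly to the right of 0 with Hspa5 alone far to the left at -0.41, and the Atf4-linked and degradation genes lie at or to the left of 0.

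Markers of macrophages, the chief cells of lavage fluid, were abundant, apart from Mertk at 2.13 to 4.22 FPKM. FPKM of 5 of them summed to 28945 to 33571 in vehicle and 26676 to 37805 in sulfatide, mostly Lyz2, and limma called 0 of the 5, with Adgre1 at an unadjusted p of 0.0232. Plasma cells and secretory epithelium are rich in ER chaperones. Of 12 plasma and B cell markers, 9 stayed under 1 FPKM in each library and Ms4a1 and Pou2af1 were among those listed at 0. The sum of 87.6 to 164 FPKM in sulfatide and 146 to 308 in vehicle came almost wholly from Sdc1 (216.96, 140.70 and 303.58 FPKM with vehicle, then 80.15, 158.18 and 125.60 with sulfatide, adjusted p = 0.0764). Mzb1 did not exceed 0.13 FPKM and Jchain 0.61. The 9 epithelial markers summed to 0.340 to 0.680 FPKM in vehicle and 1.05 to 1.33 in sulfatide, mostly Muc1, with Sftpc, Sftpa1 and Scgb3a2 listed at 0. The 5 fibroblast markers summed to 33.3 to 47.9 FPKM in vehicle and at most 43.2 in sulfatide. The 6 neutrophil markers summed to 17.9 to 31.8 and 11.3 to 36.2 FPKM. That sum was almost wholly S100a9, as the other 5 stayed under 1 FPKM in each library. The 5 T and NK cell markers summed to at most 0.270 FPKM. In such bulk samples fewer cells of a type and less RNA per cell cannot be told apart. Saa3 took 2.40 to 2.58% of the FPKM sum in vehicle and 6.52 to 6.93% in sulfatide, and sums were 1126779 to 1168474 and 1217971 to 1249691, and the part of these markers and of Saa3 in the differences of the 32 genes was not tested.

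To show what the promoters of these genes share, the 250 bases before each gene's start (RefSeq, build GRCm38.p6, the build that mm10 denotes) were searched on both strands for 4 elements. The windows of 29 of the 32 genes were given (all but Manf, Hyou1 and Atf6). The ER stress response element, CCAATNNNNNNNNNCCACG, which Atf6 binds together with the factor NF-Y, was found in 8 of the 29, and in 0.131% of all 26734 genes with a window. Those 8 were Hspa5, Hsp90b1, Pdia6, Calr, Canx, Dnajc3, Creld2 and Syvn1. Its compact form ATTGGNCCACG (it shares the letters CCACG) was found in Herpud1 (0.0374% of all genes). The UPR element core TGACGTG was found in Hspa5 (1.86% of all genes). The C/EBP-ATF response element TGATGNAA, to which Atf4 binds, was found in Chac1, Asns and Herpud1 (3.84% of all genes). No match in these genes overlapped another. A match is a run of letters and not a shown binding site, and the element was first described in genes of this very kind. The 5 windows that the values below come back to are given 5′ to 3′ on the gene's strand, with the fixed letters of each match in capitals. They lie at chr2:34771840-34772089 (Hspa5, + strand), chr14:118937682-118937931 (Dnajc3, +), chr8:94386179-94386428 (Herpud1, +), chr2:119350992-119351241 (Chac1, +) and chr6:7693210-7693459 (Asns, -).
Hspa5: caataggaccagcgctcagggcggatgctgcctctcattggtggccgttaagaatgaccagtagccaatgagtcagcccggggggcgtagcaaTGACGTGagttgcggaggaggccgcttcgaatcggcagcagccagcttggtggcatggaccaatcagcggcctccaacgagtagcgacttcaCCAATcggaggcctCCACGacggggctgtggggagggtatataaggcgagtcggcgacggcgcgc
Dnajc3: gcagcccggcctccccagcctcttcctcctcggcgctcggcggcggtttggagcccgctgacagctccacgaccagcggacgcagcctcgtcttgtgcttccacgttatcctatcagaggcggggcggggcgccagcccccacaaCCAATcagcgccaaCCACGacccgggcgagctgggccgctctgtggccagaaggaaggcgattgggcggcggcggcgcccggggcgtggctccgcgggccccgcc
Herpud1: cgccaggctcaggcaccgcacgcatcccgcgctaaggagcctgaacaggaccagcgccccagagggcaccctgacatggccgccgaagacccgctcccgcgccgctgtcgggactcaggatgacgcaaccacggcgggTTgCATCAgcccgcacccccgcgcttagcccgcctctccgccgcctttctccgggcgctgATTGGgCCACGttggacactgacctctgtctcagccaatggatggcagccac
Chac1: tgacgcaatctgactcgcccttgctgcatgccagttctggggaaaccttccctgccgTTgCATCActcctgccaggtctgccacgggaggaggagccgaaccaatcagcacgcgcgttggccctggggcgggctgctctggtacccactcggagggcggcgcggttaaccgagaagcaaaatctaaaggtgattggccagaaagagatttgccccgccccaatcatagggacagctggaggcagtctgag
Asns: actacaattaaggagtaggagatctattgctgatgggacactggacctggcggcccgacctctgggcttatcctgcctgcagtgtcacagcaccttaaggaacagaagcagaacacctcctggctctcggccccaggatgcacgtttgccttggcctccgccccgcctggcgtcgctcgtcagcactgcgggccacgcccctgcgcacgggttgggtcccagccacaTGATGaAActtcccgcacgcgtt

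Of the 8 genes with the full ER stress response element, Dnajc3 rose, Hspa5 fell and 6 did not pass the test. Hspa5 and Dnajc3 thus hold the same element within 105 bases of the start, at 65 to 47 and 105 to 87 bases before it, and moved in opposite directions. Of the 3 genes with the C/EBP-ATF response element, Chac1 and Herpud1 fell, and Asns did not pass. Over all genes tested, 8.31% were called higher and 10.4% lower, and 8 and 3 genes are too few to set against these shares.

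Among the 14 chaperones and folding factors of the ER, 2 rose (14.3%, against 8.31% of all genes tested), 1 fell (7.14%, against 10.4%) and 11 did not pass. Their median log2 fold change was 0.18, against 0.04 over all genes tested. After rescaling to TPM it was 0.07, against -0.06. Hspa5 encodes BiP, the Hsp70 chaperone of the ER that also holds the 3 sensors inactive. Vehicle replicates 2, 3 and 4 had 516.35, 571.01 and 456.47 FPKM of it, and sulfatide replicates 1, 2 and 3 had 396.74, 386.74 and 373.65 FPKM. Each sulfatide library thus lay below each vehicle library, and the 3 sulfatide values lay close together (515 ± 57.3 and 386 ± 11.6 FPKM, SD, n = 3 each). The fall was 1.33-fold (log2 fold change -0.41 ± 0.10 SE, adjusted p = 0.0188 by limma, 0.00319 to 0.0815 over the alternatives). It did not pass without vehicle replicate 2 (0.0815) or without sulfatide replicate 3 (0.0746).

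Sdf2l1, a small cofactor of Hspa5 that keeps misfolded protein soluble, had the largest rise of the 32 genes. It was at 48.57, 62.26 and 48.55 FPKM in the vehicle libraries and at 88.04, 72.17 and 69.19 FPKM in the sulfatide libraries, in replicate order. The groups did not overlap, and vehicle replicate 3 and sulfatide replicate 1 stood above the others of their groups. The rise was 1.44-fold (0.52 ± 0.13, adjusted p = 0.0252, 0.00534 to 0.176 over the alternatives), and it did not pass without vehicle replicate 2 (0.111), vehicle replicate 4 (0.0862) or sulfatide replicate 1 (0.0815). Dnajc3, also called p58IPK, is a J-domain partner of Hspa5. Its values were 35.15, 41.35 and 38.29 FPKM in vehicle and 46.13, 47.59 and 49.69 FPKM in sulfatide, again without overlap. Dnajc3 rose 1.25-fold (0.32 ± 0.09, adjusted p = 0.0440, 0.0235 to 0.174 over the alternatives). It passed without vehicle replicate 3 (0.0235) and lost the call when any other library was left out (0.0719 to 0.174).

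The remaining chaperones did not pass, and their values differed by at most 1.30-fold. Creld2, a secreted ER stress protein, was at 43.16, 57.09 and 45.10 FPKM in vehicle and 70.91, 57.96 and 60.49 FPKM in sulfatide, groups that lay apart by less than 1 FPKM (0.38 ± 0.13, adjusted p = 0.0659). The disulfide isomerase Pdia3, which works on glycoproteins, was at 401.03, 460.51 and 367.84 FPKM and at 503.30, 508.80 and 489.61 FPKM, also apart (0.29 ± 0.09, adjusted p = 0.0599). Both passed after quantile normalization (0.0408 and 0.0357) and without vehicle replicate 3 (0.0117 and 0.0115), with 0.0117 to 0.307 and 0.0115 to 0.282 over the alternatives. Manf, a secreted neurotrophic factor kept in the ER by Hspa5, was at 350.50, 471.61 and 364.40 FPKM and at 496.04, 431.09 and 470.46 FPKM. There vehicle replicate 3 lay among the sulfatide libraries (0.25 ± 0.12, adjusted p = 0.185, and 0.0164 without that library, the lowest of 0.0164 to 0.494 over the alternatives). Hsp90b1 (GRP94), the Hsp90 of the ER that folds Toll-like receptors and integrins, was at 340.05, 429.09 and 301.95 FPKM and at 422.32, 373.43 and 389.04 FPKM. Vehicle replicate 3 was the highest of the 6 (0.16 ± 0.13, adjusted p = 0.408, and 0.0481 without it, the lowest of 0.0481 to 0.991 over the alternatives).

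The lectin chaperones are a soluble and a membrane-bound form of the same folding aid for glycoproteins. The soluble Calr averaged 402 ± 41.5 FPKM with vehicle against 468 ± 41.8 with sulfatide (adjusted p = 0.167), and Canx at 199 ± 16.8 and 195 ± 13.9 (adjusted p = 0.870). The isomerases Pdia6 (207 ± 28.2 and 227 ± 13.6 FPKM, adjusted p = 0.395) and Pdia4 (41.4 ± 7.12 and 41.8 ± 2.21, adjusted p = 0.903) overlapped between the groups. So did the Hspa5 partners Dnajb11 (156 ± 13.1 and 162 ± 6.17 FPKM, adjusted p = 0.679) and Dnajb9 (33.0 ± 3.65 and 37.9 ± 3.51, adjusted p = 0.245). Hyou1, a large Hsp70 relative that exchanges the nucleotide on Hspa5, was at 25.3 ± 3.65 and 23.5 ± 3.56 FPKM (adjusted p = 0.622). With rescaling to TPM the log2 fold changes of Pdia4 and Dnajb11 became negative (-0.08 and -0.05).

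Vehicle replicate 3 had the highest level of the 3 vehicle libraries for each of the 14 chaperones. Their mean log2(FPKM + 1) in replicate order was 6.90, 7.19 and 6.89 for vehicle, against 7.18, 7.14 and 7.09 for sulfatide. So vehicle replicate 3 stood at the level of the sulfatide libraries and the groups overlapped. What else sets that library apart was not tested. Summed over the 14 genes, FPKM were 2638 to 3280 in vehicle and 3009 to 3187 in sulfatide, or 0.234 to 0.281% and 0.242 to 0.255% of each library's total.

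Set against other chaperones of the same library, Hspa5 stood apart between the groups in each pair looked at. These 4 partners were chosen after their values were seen, and the ratios are given with no test. The ratio of Hspa5 to Sdf2l1 was 10.6, 9.17 and 9.40 in vehicle and 4.51, 5.36 and 5.40 in sulfatide. That of Hspa5 to Pdia3 was 1.29, 1.24 and 1.24, and then 0.788, 0.760 and 0.763. To Hsp90b1 the ratio was 1.33 to 1.52 in vehicle and 0.939 to 1.04 in sulfatide, and to Manf 1.21 to 1.47 and 0.794 to 0.897. Hspa5 was thus the more abundant of the pair with Pdia3 in the vehicle libraries and the less abundant in the sulfatide libraries. A ratio within a library does not depend on how the libraries are scaled, and shows unequal change only.

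**Figure D2:**
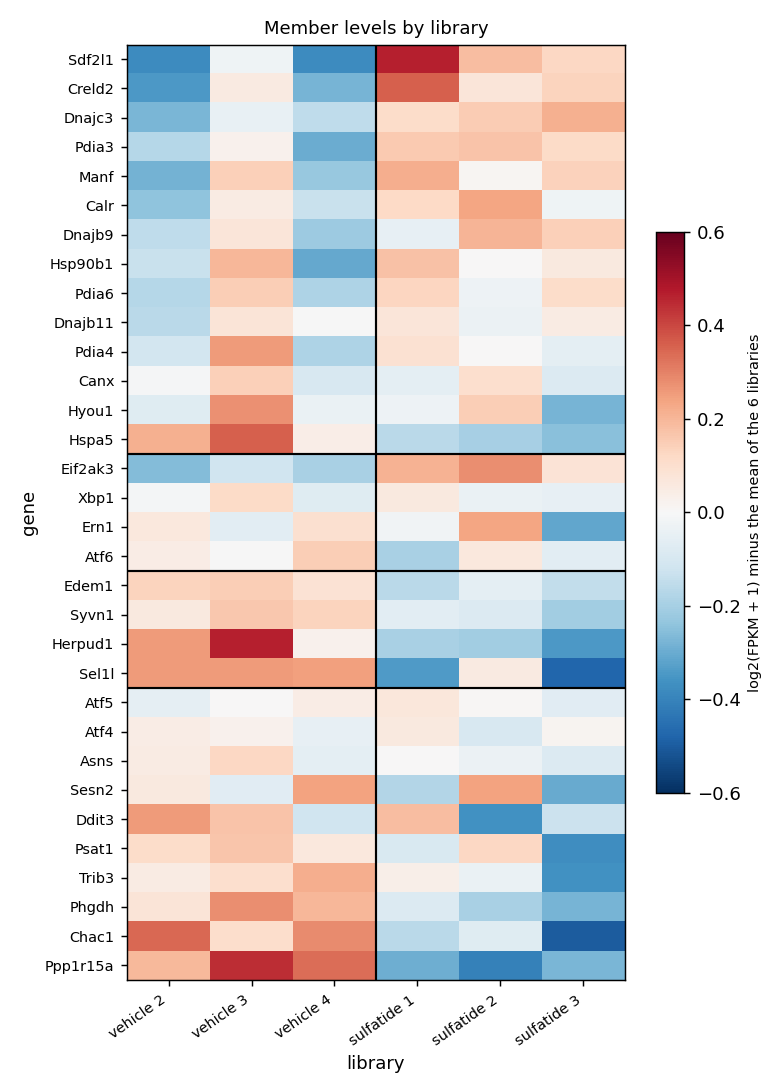
Level of each of the 32 genes (rows, grouped by role) in the 6 libraries (columns) as log2(FPKM + 1) minus the gene's mean over the 6, red above and blue below. Vehicle replicate 3 is red or pale for each of the 14 chaperones in the top block, while the degradation and Atf4-linked genes in the lower blocks are mostly red in vehicle and blue in sulfatide.

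Of the sensors, Eif2ak3 rose and the others did not pass. Eif2ak3 was at 4.13, 4.66 and 4.37 FPKM in vehicle and 6.10, 6.46 and 5.49 FPKM in sulfatide, a low level with no overlap. It rose 1.37-fold (0.38 ± 0.11, adjusted p = 0.0466, 0.0286 to 0.270 over the alternatives), a call close to the threshold. It still passed, just under the threshold, without vehicle replicate 3. It was lost when any other library was left out (0.0746 to 0.164) and after rescaling to TPM (0.103). Ern1 was at 3.24 ± 0.248 and 3.10 ± 0.770 FPKM (adjusted p = 0.801), and Atf6 at 14.5 ± 0.848 and 13.2 ± 1.26 (adjusted p = 0.436). Xbp1 was at 146.39, 159.56 and 140.07 FPKM in vehicle and 153.77, 143.41 and 142.49 FPKM in sulfatide. Its groups overlapped throughout, and the log2 fold change was -0.02 ± 0.08 (adjusted p = 0.896, 0.251 to 0.998 over the alternatives).

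The 4 genes of ER-associated degradation were lower in sulfatide in each case without overlap of the groups, and 2 of them passed (median log2 fold change -0.37). Of all genes tested, 18.3% lay apart downward and 10.4% were called lower. Herpud1, a membrane protein that organizes the degradation complex, was at 65.88, 76.33 and 55.91 FPKM in vehicle and 47.92, 47.50 and 43.05 FPKM in sulfatide. It fell 1.43-fold (-0.50 ± 0.12, adjusted p = 0.0211, 0.00559 to 0.0828 over the alternatives), but did not pass without vehicle replicate 2 (0.0828) or sulfatide replicate 3 (0.0793). The ratio of Herpud1 to Hspa5 was 0.128, 0.134 and 0.122 with vehicle, and 0.121, 0.123 and 0.115 with sulfatide, with overlap. Sel1l is the adaptor that brings substrates to the ubiquitin ligase Syvn1 (HRD1). It was at 28.59, 28.59 and 28.39 FPKM in vehicle and 18.54, 24.67 and 16.80 FPKM in sulfatide, with sulfatide replicate 2 nearest to vehicle. Sel1l fell 1.43-fold (-0.51 ± 0.13, adjusted p = 0.0314, 0.00437 to 0.147 over the alternatives). It passed without vehicle replicate 3 (0.0419) or sulfatide replicate 2 (0.00437) and not without the others (0.0838 to 0.108). Syvn1 itself was at 25.40, 27.44 and 26.83 FPKM and at 23.32, 22.97 and 20.97 FPKM (-0.24 ± 0.09, adjusted p = 0.105, 0.0279 to 0.317 over the alternatives). Edem1, a lectin that marks glycoproteins for disposal, was at 98.35, 99.16 and 95.20 FPKM and at 80.07, 85.84 and 80.84 FPKM (-0.24 ± 0.08, adjusted p = 0.0573, 0.0114 to 0.228 over the alternatives). Both passed after rescaling to TPM (0.0279 and 0.0114).

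Of the 10 genes linked to Atf4, 3 fell, none rose and 7 did not pass by limma (median log2 fold change -0.22, 30.0% called lower against 10.4% of all genes tested). The same 3 had an unadjusted p under 0.05 (30.0%, against 33.8% of all genes tested), and 6 of the 10 did after rescaling to TPM (60.0%, against 35.3%). The median log2 fold change was -0.33 after rescaling to TPM, where that of all genes tested moved from 0.04 to -0.06. Without sulfatide replicate 3 the median of the 10 was -0.11. Ppp1r15a (GADD34), the stress-induced subunit of the eIF2 phosphatase, was at 27.18, 32.41 and 30.05 FPKM in vehicle and 19.08, 17.55 and 19.30 FPKM in sulfatide. The gap between the groups was wide beside the spread within them. Ppp1r15a fell 1.60-fold (-0.65 ± 0.10, adjusted p = 0.00239), the largest fall of the 32 genes, with an adjusted p of 0.000713 to 0.0240 over the alternatives. Exons of Tulp2 lie opposite part of Ppp1r15a, and whether the counting used the strand is not given in the sources used here. The annotation (GENCODE vM21) also has exons of other protein-coding genes over parts of Manf, Pdia3, Pdia6, Syvn1 and Ddit3, whose values are uncertain to that extent. For Manf these include exons of Rbm15b on the same strand, which counting by strand would not separate, while those over Pdia3, Pdia6, Syvn1 and Ddit3 lie opposite.

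Chac1 breaks down glutathione and is a target of Atf4 and Ddit3. It was at 19.84, 16.70 and 18.99 FPKM in vehicle and 13.68, 14.62 and 10.62 FPKM in sulfatide. Chac1 fell 1.43-fold (-0.49 ± 0.13, adjusted p = 0.0340, 0.0170 to 0.136 over the alternatives). It did not pass without vehicle replicate 2 (0.136), vehicle replicate 4 (0.101), sulfatide replicate 1 (0.0599) or sulfatide replicate 3 (0.109). Phgdh, which starts the synthesis of serine, was at 221.42, 254.62 and 241.22 FPKM and at 197.74, 182.83 and 172.64 FPKM, with no overlap. Phgdh fell 1.30-fold (-0.37 ± 0.09, adjusted p = 0.0211, 0.00392 to 0.0918 over the alternatives), and did not pass without vehicle replicate 4 (0.0639) or sulfatide replicate 3 (0.0918). Psat1, the next enzyme of that pathway, was at 59.58, 62.05 and 57.75 FPKM and at 51.70, 60.14 and 42.30 FPKM, where sulfatide replicate 2 lay among the vehicle libraries (-0.23 ± 0.12, adjusted p = 0.230).

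The transcription factors at the head of this arm were abundant and near equal in the 2 groups. Atf4 was at 614.33, 605.90 and 576.36 FPKM in vehicle and 619.73, 557.72 and 603.55 FPKM in sulfatide, the highest level among the 32 genes. Its log2 fold change was -0.01 ± 0.08 (adjusted p = 0.923, and -0.12 to 0.03 over the alternatives, so that the sign was not stable). Atf5, its relative, was at 255 ± 8.47 and 255 ± 11.8 FPKM (0.00 ± 0.08, adjusted p = 0.973). Exons of Il4i1 and Nup62 lie opposite Atf5. Ddit3 (CHOP), which takes part in death under lasting ER stress, was at 54.18, 51.03 and 41.56 FPKM and at 51.46, 34.95 and 41.21 FPKM, with wide overlap (-0.21 ± 0.15, adjusted p = 0.369). Trib3, a pseudokinase that curbs Ddit3 and Atf4, was at 43.9 ± 2.69 and 37.1 ± 5.36 FPKM (adjusted p = 0.183). Asns, the asparagine synthetase, was at 282 ± 18.1 and 267 ± 7.58 FPKM (adjusted p = 0.536), and Sesn2, an inhibitor of mTORC1, at 13.7 ± 1.60 and 12.3 ± 2.73 (adjusted p = 0.514). Against Atf4 of the same library, Ppp1r15a was at a ratio of 0.0442 to 0.0535 in vehicle and 0.0308 to 0.0320 in sulfatide. For Chac1 the ratio was 0.0276 to 0.0329 and 0.0176 to 0.0262. That of Ddit3 overlapped, at 0.0721 to 0.0882 and 0.0627 to 0.0830. With Atf4 near equal, these ratios mostly repeat the change of the other gene, and they are given with no test.

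**Figure D3:**
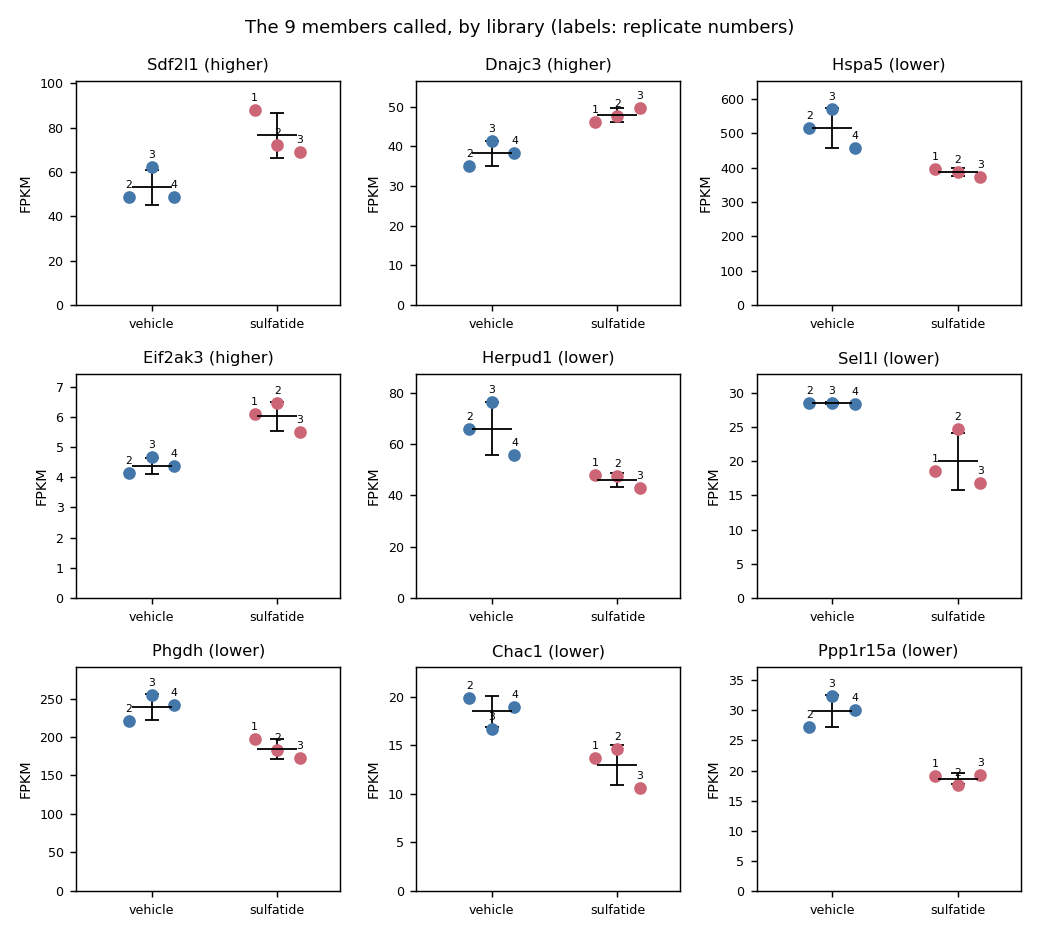
FPKM (y axes, from 0) of the 9 genes called by limma, 1 point per library labelled with its replicate number, with the mean and SD of 3 libraries per group. No panel has overlapping groups, and Ppp1r15a lies at 27.18 to 32.41 FPKM in vehicle and 17.55 to 19.30 FPKM in sulfatide.

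The chaperones and the Atf4-linked genes were set against each other within each library. The mean log2(FPKM + 1) of the 10 Atf4-linked genes was 6.33, 6.35 and 6.34 in vehicle and 6.17, 6.14 and 5.98 in sulfatide, without overlap. The chaperone mean minus the Atf4-linked mean came to 0.57, 0.83 and 0.55 for the vehicle libraries, against 1.00, 1.00 and 1.11 for the sulfatide libraries. The sulfatide libraries lay above the vehicle libraries, of which replicate 3 came nearest. Leaving Hspa5 out of the chaperones gave 0.40, 0.68 and 0.40 against 0.89, 0.89 and 1.00. The difference between the 2 medians of log2 fold change was 0.40, and 0.28 to 0.51 over the alternatives. No test was made on these means, as the genes were grouped with results of these data known, and most single chaperones did not pass.

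**Figure D4:**
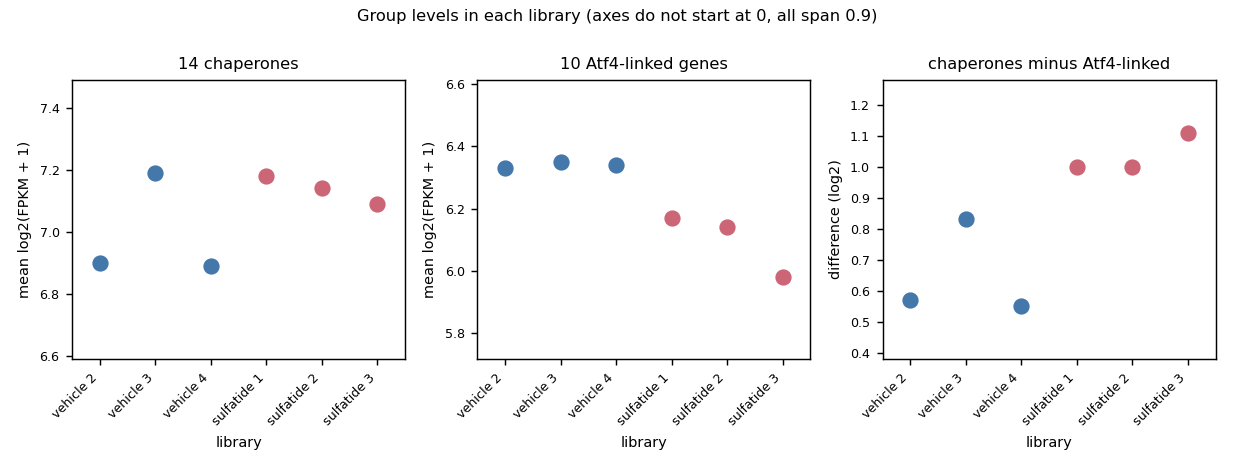
Mean log2(FPKM + 1) of the 14 chaperones (left) and of the 10 Atf4-linked genes (middle), and the first minus the second (right), in each library (vehicle blue, sulfatide red, axes not from 0). The chaperone level of vehicle replicate 3 (7.19) lies with the sulfatide libraries, the Atf4-linked level is lower in the 3 sulfatide libraries, and the difference is 0.55 to 0.83 in vehicle and 1.00 to 1.11 in sulfatide.

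Further genes of both pathways were read from lists of related function. Among the 35 tested genes listed as other targets and partners of Atf4 and Ddit3 (of 40), 10 fell (28.6%, against 10.4% of all genes tested) and 2 rose (5.71%, against 8.31%), with a median log2 fold change of -0.11. Leaving out vehicle replicate 2 gave 4 falls, sulfatide replicate 3 gave 5, and vehicle replicate 4 or sulfatide replicate 1 gave 6, as did unfiltered genes. The factors of the AP-1 family Jdp2 (155 ± 5.32 to 72.5 ± 13.7 FPKM, adjusted p = 0.000478) and Atf3 (311 ± 26.7 to 195 ± 17.6, adjusted p = 0.00186) fell, and so did the autophagy receptor Sqstm1 (1242 ± 124 to 712 ± 172, adjusted p = 0.00691). Cebpb, a partner of Atf4 that is also a factor of the acute phase response, fell from 1249 ± 153 to 865 ± 101 FPKM (adjusted p = 0.0146, and 0.0502 and 0.0588 without sulfatide replicates 1 and 3). These 4 genes are also known as targets of inflammatory or oxidative signals. Falls were also seen in Gdf15, a stress cytokine (13.9 ± 2.77 to 7.26 ± 1.89 FPKM, adjusted p = 0.0182, and 0.0851 without vehicle replicate 2). The folate enzyme Mthfd2 (196 ± 10.1 to 157 ± 14.3 FPKM, adjusted p = 0.0383) passed only with sulfatide replicate 2 left out (0.0269) and not with any other (0.0564 to 0.147). The amino acid transporter chain Slc3a2 (896 ± 80.1 to 721 ± 26.6 FPKM, adjusted p = 0.0399) passed only with vehicle replicate 3 left out (0.0193 against 0.0514 to 0.130). Over the alternatives adjusted p ran from 0.00686 to 0.0704 for Cebpb, 0.00980 to 0.0851 for Gdf15, 0.00946 to 0.147 for Mthfd2 and 0.0130 to 0.216 for Slc3a2.

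The transporters Slc7a1 (0.0178) and Slc1a4 (0.0118) and the proline enzyme Pycr1 (0.0284), named after their values were seen, were the other 3 that fell, at adjusted p as given. All 3 lost the call without vehicle replicate 2 (0.0752, 0.0617 and 0.0517) and under the replicate block (0.0661, 0.0571 and 0.107). Slc7a1 also lost it without vehicle replicate 4 (0.0674), sulfatide replicate 1 (0.0544) or sulfatide replicate 3 (0.0614), and with unfiltered genes (0.0537). Pycr1 also lost it without vehicle replicates 3 (0.0592) or 4 (0.0781) or sulfatide replicates 2 (0.0561) or 3 (0.0970). The range over the alternatives was 0.00373 to 0.0752 for Slc7a1, 0.00582 to 0.0617 for Slc1a4 and 0.0149 to 0.107 for Pycr1. Ddit4, an inhibitor of mTORC1, rose from 19.78, 28.43 and 20.18 FPKM to 45.10, 33.60 and 37.36 FPKM (adjusted p = 0.0125, 0.00166 to 0.0639 over the alternatives, the highest without vehicle replicate 2). Map1lc3b, the autophagosome protein LC3B, rose from 220 ± 10.8 to 300 ± 18.8 FPKM (adjusted p = 0.00627). The partner chains Slc7a11 (139 ± 8.68 and 113 ± 27.8 FPKM, adjusted p = 0.192) and Slc7a5 (33.3 ± 3.46 and 25.3 ± 5.59, adjusted p = 0.0970) did not pass. Neither did Shmt2 (adjusted p = 0.358), Psph, the last enzyme of serine synthesis (0.498), Nupr1 (0.706) and Vldlr (0.0728).

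Among the 18 genes of the kinases and phosphatases of eIF2 and their partners, 1 fell (5.56%, against 10.4% of all genes tested), none rose by limma, and the median was -0.00 (at an unadjusted p under 0.05, 3 were lower and 2 higher, and 3 were called lower after rescaling to TPM). The one that fell was Eif2ak2 (PKR), the kinase that double-stranded RNA activates and interferon induces. It was at 52.15, 34.68 and 41.54 FPKM in vehicle and 19.66, 19.44 and 22.45 FPKM in sulfatide, well apart (-1.01 ± 0.14, adjusted p = 0.00158). Eif2ak3 and Eif2ak2, which phosphorylate the same site of eIF2, thus differed in opposite directions. The other kinases, Eif2ak4 (GCN2, 4.01 ± 0.127 and 4.70 ± 0.663 FPKM, adjusted p = 0.335) and Eif2ak1 (HRI, 43.6 ± 1.39 and 45.9 ± 1.68, adjusted p = 0.567), did not pass. The constitutive phosphatase subunit Ppp1r15b was at 41.26, 39.71 and 45.73 FPKM and at 32.22, 39.03 and 34.09 FPKM, apart but not called (-0.26 ± 0.10, adjusted p = 0.109). The activator Gcn1 (6.63 ± 0.658 and 5.27 ± 0.226 FPKM, adjusted p = 0.119) and Eif2b2, a subunit of the exchange factor of eIF2 (56.4 ± 2.90 and 69.6 ± 10.3, adjusted p = 0.106), did not pass either.

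Among 18 further transducers and regulators of the unfolded protein response, 4 fell (22.2%, against 10.4% of all genes tested) and 2 rose (11.1%, against 8.31%), with a median of -0.15. Without sulfatide replicate 3 these were 2 and 0, and without vehicle replicate 2 they were 3 and 0. Map3k5 (ASK1), a kinase that IRE1 engages through Traf2, fell 1.89-fold from 10.05, 10.51 and 9.74 FPKM to 4.96, 5.77 and 5.32 FPKM (-0.81 ± 0.11, adjusted p = 0.000994). Traf2 itself fell from 53.3 ± 3.05 to 39.2 ± 2.26 FPKM (-0.43 ± 0.09, adjusted p = 0.0112, and 0.0622 and 0.0571 without vehicle replicate 2 and sulfatide replicate 3). The factors Creb3l1, an ER-bound relative of Atf6 (5.43 ± 0.194 to 3.30 ± 0.217 FPKM, adjusted p = 0.00689), and Nfe2l1, which raises proteasome genes (137 ± 2.64 to 101 ± 9.37, adjusted p = 0.00965, and 0.0512 without sulfatide replicate 3), fell as well. The 2 that rose, named after their values were seen, were Ormdl3, a regulator of sphingolipid synthesis in the ER (31.8 ± 3.90 to 46.7 ± 4.47 FPKM, adjusted p = 0.0129), and Bloc1s1 (118 ± 10.6 to 156 ± 14.1, adjusted p = 0.0243). The mRNA of Bloc1s1 is one that IRE1 can cut. Ormdl3 did not pass without vehicle replicate 2 (0.0667) or sulfatide replicate 3 (0.0553), nor Bloc1s1 without vehicle replicates 2 (0.108) or 4 (0.0828) or sulfatide replicates 1 (0.0771) or 3 (0.0983). Across the alternatives the adjusted p was 0.00244 to 0.0622 for Traf2, 0.00328 to 0.0758 for Nfe2l1, 0.00388 to 0.0667 for Ormdl3 and 0.00903 to 0.108 for Bloc1s1.

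Other folding enzymes of the ER gave few calls. Of 23 tested (of 25), 2 rose (8.70%, against 8.31% of all genes tested) and none fell by limma (median 0.10, and 2 higher and 1 lower at an unadjusted p under 0.05). The oxidase Ero1a, which supplies the isomerases with disulfides, was at 121.09, 132.06 and 130.02 FPKM in vehicle and 150.88, 168.94 and 176.86 FPKM in sulfatide (0.37 ± 0.09, adjusted p = 0.0212). P4hb, the founding protein disulfide isomerase, was at 319.09, 335.28 and 318.55 FPKM and at 374.67, 412.49 and 389.78 FPKM (0.27 ± 0.08, adjusted p = 0.0388). Neither passed after rescaling to TPM (0.0685 and 0.155), where 2 of the list were lower and none higher. Without vehicle replicate 2, vehicle replicate 4 or sulfatide replicate 3 the list had no call, without sulfatide replicate 1 it had 1, and without vehicle replicate 3 it had 3, all higher. Ero1a did not pass without vehicle replicates 2 (0.102) or 4 (0.0521) or sulfatide replicate 3 (0.0942), and P4hb passed only without vehicle replicate 3 (0.0312 against 0.0728 to 0.149). Ranges over the alternatives were 0.0178 to 0.102 for Ero1a and 0.0312 to 0.155 for P4hb. Dnajc10, which reduces wrong disulfides, was at 57.6 ± 8.95 and 53.2 ± 5.43 FPKM (adjusted p = 0.585), the J-protein Dnajc1 at 36.6 ± 2.47 and 30.0 ± 2.25 (0.0741), and the cyclophilin Ppib at 465 ± 38.3 and 534 ± 44.7 (0.173).

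Of the 25 genes of translocation into the ER and N-glycosylation, 1 rose (4.00%, against 8.31% of all genes tested) and none fell by limma (median 0.15, and 6 higher and 0 lower at an unadjusted p under 0.05). Without vehicle replicate 3, 8 rose, without sulfatide replicate 2 there were 2, and after quantile normalization 4. Dad1, a subunit of the oligosaccharyl transferase, rose from 292.74, 313.55 and 291.98 FPKM to 413.66, 392.51 and 414.52 FPKM (0.44 ± 0.08, adjusted p = 0.00415, 0.00217 to 0.0393 over the alternatives). The channel subunit Sec61b (0.0728), the signal peptidase Sec11a (0.0621) and Srp9 of the signal recognition particle (0.0628) came next by p and did not pass. None of 20 further genes of ER-associated degradation passed by limma (of all genes tested, 8.31% were higher and 10.4% lower). Their median was 0.02, and 2 were lower and 0 higher at an unadjusted p under 0.05 (33.8% of all genes tested in either direction). Of the 4 described above, 2 passed, but both lists were drawn up with earlier results known. After rescaling to TPM, 2 of the 20 were lower, as they were without sulfatide replicate 2, and 1 was higher without vehicle replicate 3. Faf2 (0.0888), Nploc4 (0.118) and Selenos (0.222) were among those with the smallest p. Derl3, typical of plasma cells, did not exceed 0.64 FPKM.

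**Figure D5:**
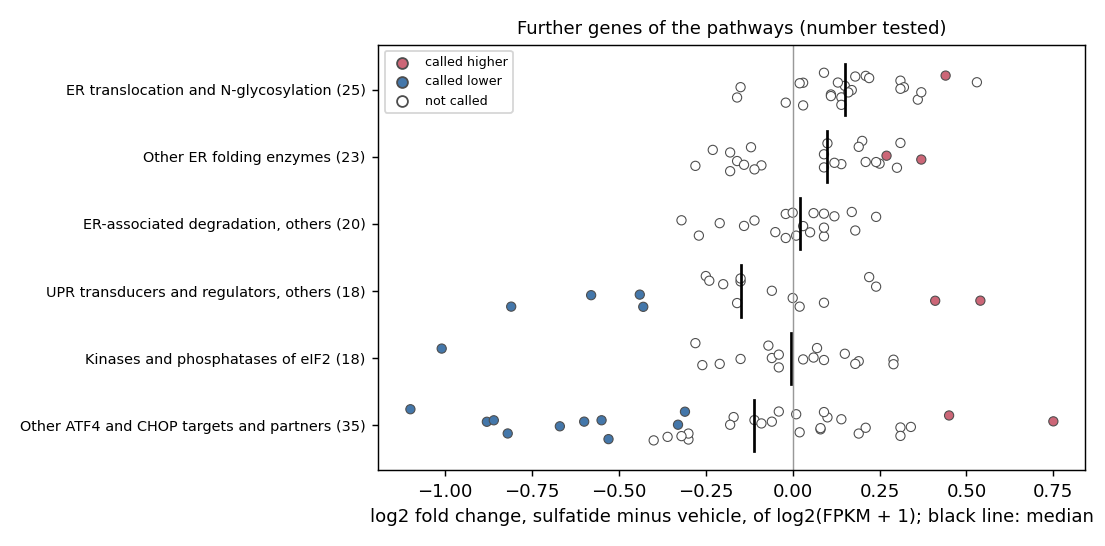
Log2 fold change (x axis, sulfatide minus vehicle, from log2(FPKM + 1) values) of the tested genes of 6 further lists, 1 point per gene, filled where called by limma, with a black line at each list's median. The list of other Atf4 and Ddit3 targets holds 10 filled points to the left and 2 to the right, and the lists of ER translocation and folding hold 3 filled points, to the right.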

How the data were processed

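The authors deposited 1 table of FPKM values (2 decimals), made from poly(A)-selected, strand-specific, paired-end Illumina libraries, per the labels' protocols. Per the submitters' processing notes, mm10 was used. Which aligner, counter and gene annotation made the values is not given in the sources used here. Columns were matched to libraries by title, and 3 further value columns that matched no sample were not used. FPKM are not counts, so absolute depth is unknown. Depth relative to vehicle replicate 2, from the most frequent ratio of values between 0.1 and 1.5 FPKM, was about 0.841 to 1.19.

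Values were analysed as log2(FPKM + 1), a pseudocount that understates changes of low genes, for the 10405 genes with at least 1 FPKM in at least 3 libraries. All these genes entered 1 fit in limma 3.58.1 in R 4.3.3 (lmFit, eBayes with trend, 2-sided, Benjamini-Hochberg over all genes tested, called below 0.05), checked on simulated data. With 3 libraries a group, the smallest p of an exact permutation test is 0.1, so none was run. Folds are ratios of mean FPKM. The 32 genes, their roles and the further lists were chosen with earlier results of these data known. Named were all 32, the 4 genes of each further list with the smallest p and a preset group of 17, others being marked; some named items are not reported here. Alternatives were a pseudocount of 0.1 or 0.5, unfiltered genes, a minimum of 5 FPKM, TPM, quantile normalization, each replicate left out and a replicate block. Promoter windows are RefSeq's for GRCm38.p6.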

Additional observations from a re-analysis of the deposited data

How the results depend on the processing

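The number of members higher in sulfatide, 3, was 0 with no filter on low values, 5 after quantile normalization, 1 after rescaling to TPM and 0 under the replicate block, and 0 to 7 with 1 library left out (4, 5 and 4 members were higher at an unadjusted p under 0.05 without vehicle replicate 2, vehicle replicate 4 and sulfatide replicate 1, where limma called 0, and 5 and 2 with no filter and with the block). The number lower, 6, was 4 with no filter on low values, 8 after rescaling to TPM and 3 with the replicate block. It was 1 to 6 with 1 library left out, and 1 without sulfatide replicate 3. The pseudocounts and the filter at 5 FPKM called 3 and 6 genes as well. The Atf4-linked median of -0.22 was -0.33 after rescaling to TPM (0.04 and -0.06 over all genes tested). It was -0.30 to -0.11 with 1 library left out. Genes near 0 changed sign without being called. Atf4 was at 0.02 after quantile normalization, Atf5 at -0.00 with the block and -0.11 with TPM, Dnajb11 at -0.05 with TPM, Hsp90b1 at -0.00 with the block, and Pdia4 at -0.10 with the block and -0.08 with TPM. With 1 library left out, ranges of log2 fold change were -0.05 to 0.03 for Atf4, -0.03 to 0.04 for Atf5, -0.08 to 0.04 for Canx, -0.01 to 0.11 for Dnajb11, -0.20 to 0.08 for Ern1, -0.21 to 0.01 for Hyou1, -0.06 to 0.16 for Pdia4 and -0.06 to 0.03 for Xbp1. Over single genes, 345 of 415 values under an alternative kept direction and side of the threshold, 40 lost a call, 8 gained one and 22 changed sign. Most of the 415 values belong to the 23 genes not called, and only called genes could lose a call. Leaving out a library leaves fewer samples, also without vehicle replicate 3, where 7 members were higher. No filter adds genes to the adjustment. The cause of these changes was not tested. The replicate block leaves replicate 1 of sulfatide and replicate 4 of vehicle without a partner, so its estimate rests on replicates 2 and 3. Only replicates 2 and 3 are shared between the groups, and the deviations of those pairs correlated at 0.156 and -0.303, so the numbers were not taken to pair the samples. FPKM without counts do not show how far depth limits low genes such as Ern1 and Eif2ak3.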
